A study of Mus musculus with 7 samples.

Results

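Tip60 that stayed at promoters upon Hdac6 KD was measured by comparing a Flag ChIP-seq library of Tip60-H3F embryonic stem cells (ESCs) infected with an Hdac6 shRNA virus with a Flag ChIP-seq library of untagged ESCs. These are 2 of the 7 samples of the series, with 1 sample a side, and the comparison covers all 36733 rows of the deposited profiles, 1 row per transcription start site (TSS). For each row the mean signal from -500 to 500 bp of the TSS was divided by the mean signal of its library at 1500 to 2000 bp on either side of the TSS, called the flank. The ratio of these values, Tip60 over untagged, is given throughout as the scaled ratio.

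Both samples were E14 mouse ESCs grown without feeders and precipitated with the same Flag-M2 antibody. In Tip60-H3F cells 1 copy of the endogenous Tip60 gene (Kat5) carries a C-terminal tag of histidine and Flag epitopes, so the protein is made from its own promoter. These cells were taken 72 hr after lentiviral infection with the Hdac6 shRNA. The untagged cells are labelled wild type with no knockdown, so the untagged sample measures the Flag background without a tag and also without Hdac6 KD, and the effects of the tag and of the knockdown cannot be told apart in this comparison. Whether the untagged cells received a control virus is not given by their labels, so infection may differ between the sides as well. There is 1 tagged line, and how far Hdac6 was depleted cannot be read from ChIP-seq. Nor can the labelled cell type be checked by its RNA markers. At the Hdac6 gene itself the Tip60 library held 10 reads and the untagged library 9, for a scaled ratio of 1.55 (95% counting interval 0.531 to 4.04).

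Tip60 is the acetyltransferase of Tip60-p400, a chromatin complex that acetylates histones and, through the ATPase p400, exchanges histone H2A for its variant H2A.Z. In ESCs the complex sits near the start sites of many active genes and is known both for activating genes of proliferation and for holding differentiation genes silent. Hdac6 is a class II deacetylase that is mostly cytoplasmic in differentiated cells. The comparison asks which genes still carried Tip60 above the Flag background when Hdac6 was depleted.

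Cytosolic ribosomal protein genes had the highest share of genes above background among the lists examined. Promoters of genes called above are printed here to show what these start sites look like. Each sequence is the mm9 reference from 250 to 1 bp upstream of the TSS on the strand of the gene. Capitals mark the searched motifs on either strand, which were CCAAT (NFY), CCGGAAG (ETS), TGACGTCA (CRE), GGGCGG (SP), the NRF1 motif, AAGATGGC (YY1), CACGTG (E-box) and TATAAA (the TATA box). A match is a description only, not a site of binding. Rps29 had the highest scaled ratio and Rpl23a the most Tip60 reads of the cytosolic ribosomal protein genes, and Eif5a had the highest lower bound of the RefSeq rows ranked. Olfr1444 shows an AT-rich start site of a gene silent in ESCs that was also called above. Its call rests on 0 untagged reads, since its Tip60 signal was 1.15 times the flank against 1.10 over all rows. From -250 to 250 bp its ratio was 1.46.
Rps29 (chr12:70260058-70260307, minus strand): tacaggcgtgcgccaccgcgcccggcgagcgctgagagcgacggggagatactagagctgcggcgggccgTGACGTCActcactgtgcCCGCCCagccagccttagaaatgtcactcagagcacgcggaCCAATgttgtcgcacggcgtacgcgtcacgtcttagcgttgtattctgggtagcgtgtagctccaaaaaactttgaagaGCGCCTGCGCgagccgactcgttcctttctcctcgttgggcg
Rpl23a (chr11:77997046-77997295, minus strand): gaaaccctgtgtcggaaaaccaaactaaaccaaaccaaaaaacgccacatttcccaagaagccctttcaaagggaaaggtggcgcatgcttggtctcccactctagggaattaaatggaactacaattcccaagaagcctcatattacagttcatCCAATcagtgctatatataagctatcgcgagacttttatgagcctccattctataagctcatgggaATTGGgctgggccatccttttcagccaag
Eif5a (chr11:69734443-69734692, minus strand): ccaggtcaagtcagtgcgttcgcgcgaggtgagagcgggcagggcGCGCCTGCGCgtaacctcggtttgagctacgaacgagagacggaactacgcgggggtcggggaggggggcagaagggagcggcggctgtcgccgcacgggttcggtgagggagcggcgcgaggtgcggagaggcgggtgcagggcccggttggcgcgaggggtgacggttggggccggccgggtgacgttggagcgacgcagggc
Olfr1444 (chr19:12936017-12936266, plus strand): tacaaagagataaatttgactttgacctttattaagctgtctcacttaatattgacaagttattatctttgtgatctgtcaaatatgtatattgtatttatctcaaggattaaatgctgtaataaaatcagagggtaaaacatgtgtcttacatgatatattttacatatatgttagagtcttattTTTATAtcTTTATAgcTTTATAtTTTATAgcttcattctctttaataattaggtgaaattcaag
CCAAT stood upstream of both of these ribosomal protein genes. Over all RefSeq rows it was found in 33.7% of promoters of this length, in 43.3% of the 30 ribosomal protein genes above background and in 19.6% of the other 46. CCGGAAG was found in 9.60% of all RefSeq promoters and in 34.2% of the 76 ribosomal protein promoters, and TGACGTCA in 2.03% and 7.89%. TATAAA, which repeats 4 times upstream of Olfr1444, was found in 11.8% of all RefSeq promoters.

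The libraries were of similar depth, and few reads fell on any single row. The Tip60 library was normalized to 19161070 reads and the untagged library to 23146794. A row held a median of 9 reads within 500 bp of the TSS in the Tip60 library (interquartile range 6 to 13) and 12 in the untagged library (8 to 16). The mean flank signal was 0.139 and 0.151 ppm, so the Tip60 library was lower by a factor of 0.924 before scaling. Intervals beside single rows are exact 95% intervals of the ratio of 2 read counts. They cover counting error only, since repeated reads were kept by the authors and cultures were not replicated, and no test between conditions was possible.

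Averaged over all rows, little Tip60 stood above the Flag background upon Hdac6 KD. The mean promoter signal was 1.10 times the flank in the Tip60 library and 1.02 times in the untagged library, a scaled ratio of 1.07 (counting interval 1.07 to 1.08). Without scaling to the flank the ratio was 0.993, so its direction depends on the scaling. Upon GFP KD, the control knockdown, Tip60 stood at 1.21 times its flank. That sample shares the untagged control, which gives it a ratio of 1.19.

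A row was called above background where its scaled ratio was at least 2 and the lower bound of its 95% interval exceeded 1, and below background by the mirror rule. By this rule 2301 rows (6.26%) were above and 1329 (3.62%) below. They must be read against windows of the same width away from the TSS, where 4.90% (upstream end of the profile) and 4.48% (downstream end) of rows were above and 4.39% and 4.47% below. The share above at the TSS therefore exceeded that at either end of the profile, and the share below was smaller than at either end. Without scaling to the flank the order turned, with 4.6% of rows above and 4.92% below. The 2301 rows lay at 1960 separate loci over 1000 bp apart, and 1553 of them carry a RefSeq identifier (6.84% of RefSeq rows, with 3.4% below). Taking 1 row per gene, 1317 of 17689 genes (7.45%) were above and 612 (3.46%) below, with a median scaled ratio of 1.05. Without scaling 5.48% of genes were above and 4.75% below. The median row above held 19 Tip60 and 9 untagged reads, against 9 and 12 reads in the other rows, so the rule picked rows high in Tip60 and low in untagged signal alike. At the threshold, Gtpbp10 (26 and 17 reads) was just inside and Gar1 (26 and 17 reads) just outside, both with a ratio that rounds to 2.00.

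The share above was highest at rows with much p400. The RefSeq rows were ranked by p400 signal upon GFP KD, which comes from another antibody and was not used by the rule. Among the 2270 rows with the highest 10% of p400, 357 rows (15.7%, binomial interval 14.3 to 17.3) were above and 51 (2.25%) below. The share above was 7.93% for the next 20% of rows, 5.23% for the middle 30% and 5.29% (4.83 to 5.77) for the last 40%. At the ends of the profile the 4 groups did not follow this order, with 4.12% to 5.68% of windows above. The summed scaled ratio, which does not depend on the depth of single rows, stood at 1.30 (1.28 to 1.32) for the top 10%, then 1.12, 1.02 and 1.04 for the groups with less p400. The untagged signal also followed p400, from 1.41 times the flank in the top 10% to 0.810 in the last 40%.

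**Figure D1:**
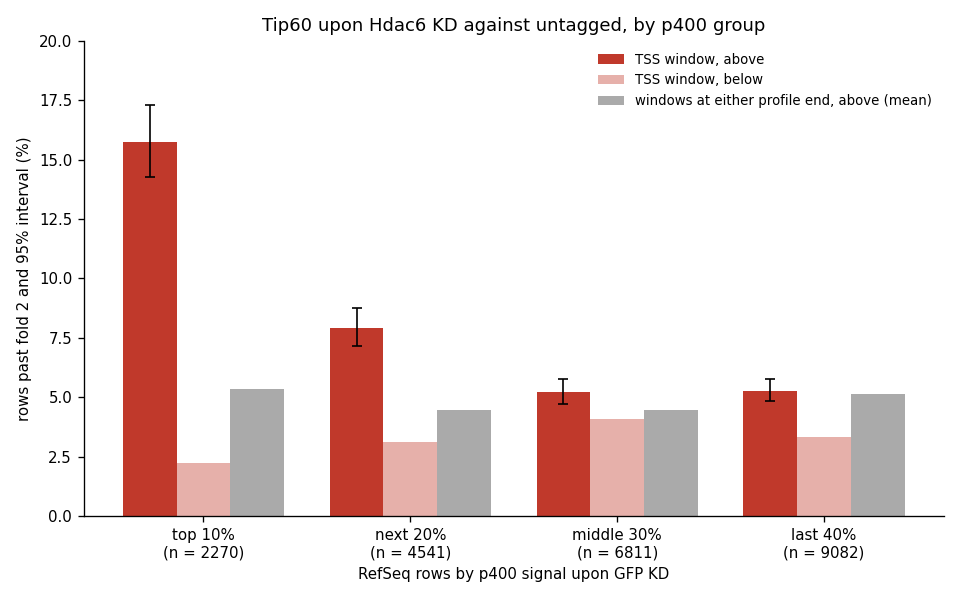
Percent of RefSeq rows (y axis) above (red) and below (pink) the untagged control by p400 group (x axis), with the mean share above in windows at the 2 ends of the profile (grey). Error bars are 95% binomial intervals. The red bar is highest in the top 10% of p400, at 15.7%, and close to its grey bar in the last 40%, at 5.29%.

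The excess was centred on the TSS. In the top 10% of p400 the Tip60 profile had a maximum upstream at -400 bp (1.91 times the flank) and one downstream at 120 bp (1.95), with a dip to 1.75 at -140 bp. The untagged profile fell to 1.30 at the TSS and was higher on either side. The ratio of both profiles was 1.24 (1.21 to 1.26) from -600 to -200 bp, 1.39 (1.36 to 1.42) from -100 to 300 bp, 1.07 from 600 to 1000 bp and 1.02 (0.992 to 1.04) from 1000 to 1500 bp. In the last 40% of p400 the ratio stayed between 1.02 and 1.07 over the same range, with no peak at the TSS.

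**Figure D2:**
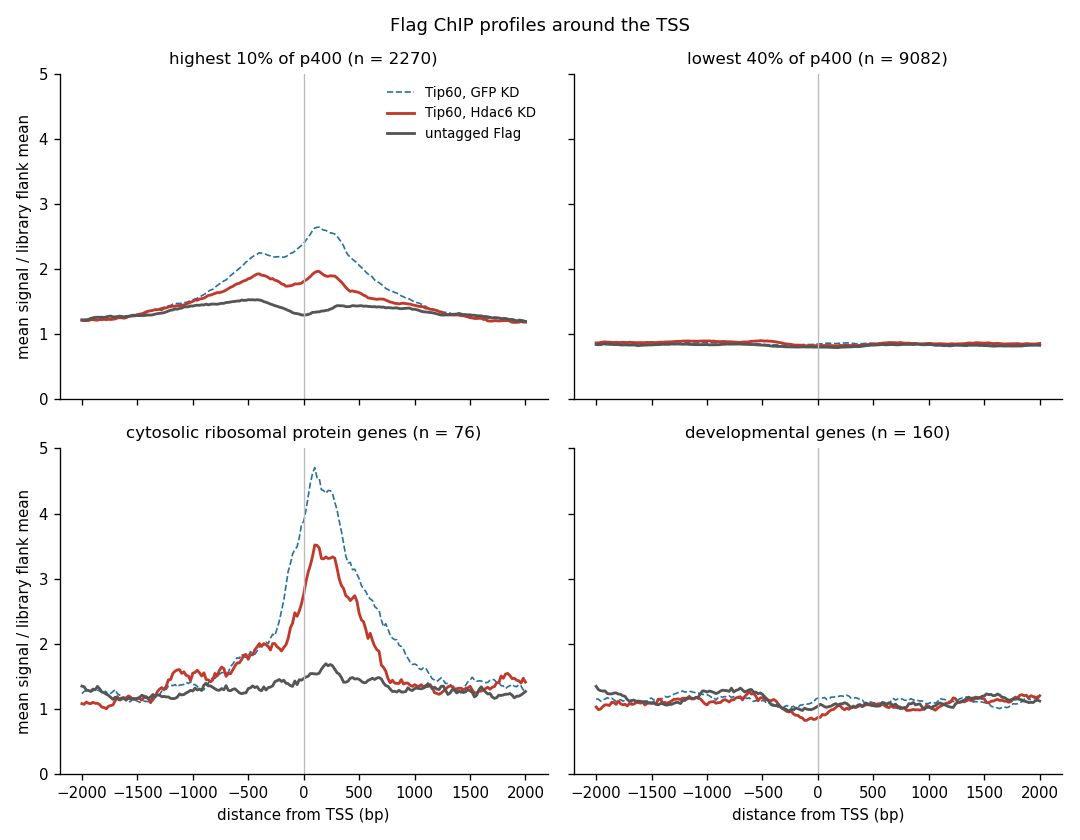
Mean signal over the library's flank mean (y axis, smoothed over 100 bp) against distance from the TSS in bp for Tip60 upon Hdac6 KD (red), untagged Flag (grey) and, for orientation, Tip60 upon GFP KD (blue, dashed). Red stands above grey at the TSS in the top 10% of p400 (n = 2270) and at ribosomal protein genes (n = 76), lies close to grey in the last 40% of p400 (n = 9082), and dips under grey just upstream of the TSS at developmental genes (n = 160).

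GC content moved with these values. In flank windows apart from other start sites, the unscaled Tip60 to untagged ratio fell from 1.32 at 25 to 27.5% GC to 0.827 at 57.5 to 60% GC, and was 0.870 at 60 to 62.5% GC. Rows of the top 10% of p400 had a mean GC content of 60.6% and those of the last 40% 47.9%. Scaling within GC bins raised the share above in the top 10% to 20.2% and left that of the last 40% at 5.37%. Within the top 10%, the GC-poorer rows were above in 17.7% and the GC-richer in 13.8%. By this scaling 7.51% of all rows and 9.02% of genes were above.

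What the rows above had in common differed between the ends of the p400 ranking. In the top 10%, rows above had more Tip60 upon GFP KD than the other rows, with a median of 2.54 against 2.03 times the flank. Their p400 upon GFP KD was 3.39 against 3.13 and their Hdac6 2.54 against 2.56. In the last 40%, the 480 rows above had a median of 0.855 for Tip60 upon GFP KD against 0.818 in the other 8602, 0.827 against 0.857 for p400 and 0.732 against 0.848 for Hdac6. The mean p400 of these rows hardly differed, at 0.818 and 0.816. At the low end of p400, rows above were thus lower in Hdac6 than the other rows and slightly higher in Tip60 upon GFP KD, libraries that the rule did not use. These rows above were also lower in GC, with a median of 44.1% against 47.0%. Hdac6 signal itself moved with GC. Over all rows in 5 equal groups by GC, it was 0.604 times the flank in the lowest and 2.54 in the highest. Whether the Hdac6 difference goes beyond GC was not tested. With all rows cut into 5 equal groups by Hdac6 signal, 5.19% of the lowest group and 8.13% of the highest were above. Rows without a RefSeq identifier were above in 5.33% of 14029 cases.

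Cytosolic ribosomal protein genes, which encode the ribosome, had the highest share of genes above background of the lists examined, though its interval overlaps those of several others. Of 76 genes with a row, 30 (39.5%, binomial interval 28.4 to 51.4) were above and 1 below, and the median ratio was 1.79 against 1.05 over all genes. In windows at the upstream and downstream ends of the profile 6 and 10 of these genes were above, against 5.10% and 4.58% of all genes. Scaling within GC bins gave 37 above, and windows from -250 to 250 bp or from -1000 to 1000 bp gave 18 each. The genes held 5 to 49 Tip60 reads (median 22) and 2 to 30 untagged reads (median 17). Rps29 (chromosome 12, TSS at 70260057) had 24 Tip60 and 2 untagged reads, a ratio of 13.3 with a lower bound of 3.90. Rpl23a had 49 and 15 reads (ratio 4.13). Rpl27a with 27 and 15 reads (2.36, 1.21 to 4.76) and Rps9 with 40 and 23 (2.30, 1.33 to 3.98) were also above. The summed ratio of all 76 genes rose from 1.13 at -1500 to -1000 bp to 1.42 at -600 to -200 bp and 1.99 at -100 to 300 bp, and was 1.01 at 1000 to 1500 bp. The Tip60 profile peaked at 120 bp downstream, at 3.43 times the flank.

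The 30 ribosomal protein genes above had values near those of the other 46 in the libraries that the rule did not use. Their mean Tip60 upon GFP KD was 3.35 times the flank against 3.16, their p400 upon GFP KD 3.46 against 3.39, and their p400 upon Hdac6 KD 1.39 against 1.40. Hdac6 was 2.21 against 2.57. Of all 76 genes, 68 had a scaled ratio over 1, and 58 were in the top 10% of p400, 22 of them above. Ribosomal protein genes have many processed copies in the genome, and reads with several matches were placed at random, so values within their exons are less certain than those upstream. The start of another gene lies within 1000 bp of Rps29 and Rpl27a, as of Atp5g2, Sf3b3 and Polk, and reads there cannot be assigned to 1 gene.

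**Figure D3:**
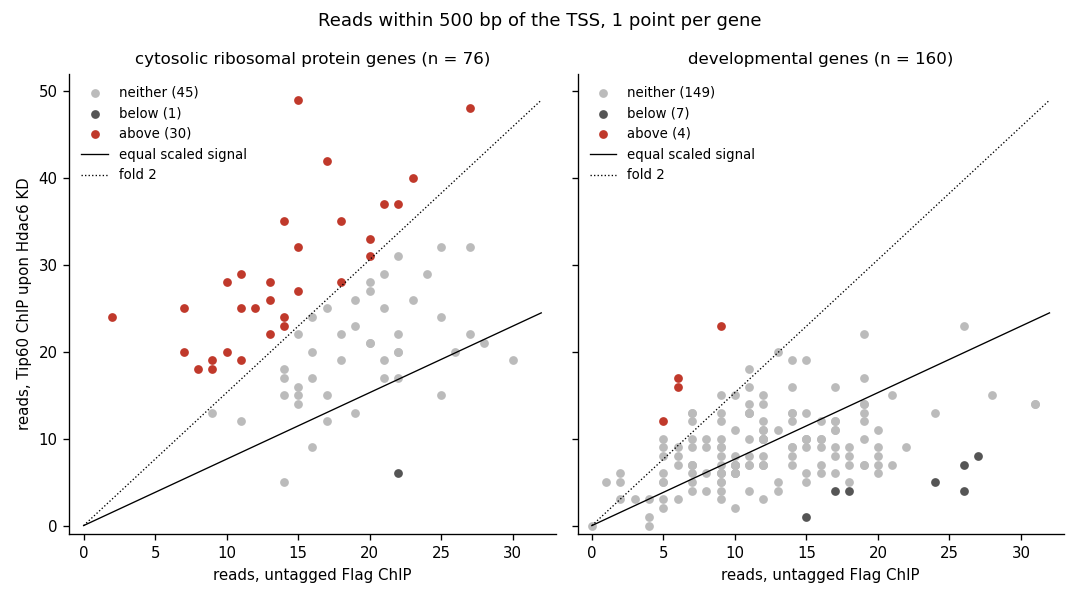
Reads within 500 bp of the TSS in the Tip60 library upon Hdac6 KD (y axis) against the untagged library (x axis), 1 point per gene, for ribosomal protein genes (left) and developmental genes (right). The lines mark equal scaled signal and a fold of 2. Of 76 ribosomal protein genes 30 are above (red) and 1 below (dark), of 160 developmental genes 4 and 7.

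Other lists of protein synthesis had smaller shares above, from 26.1% down to 10.0%, against 7.45% of all genes. Many of their genes were in the top 10% of p400, where 305 of all 1911 genes were above. There lay 20 mitochondrial ribosomal protein genes (5 above) and 22 translation factor genes (4 above). So did 13 aminoacyl-tRNA synthetase genes (1 above) and 21 ribosome biogenesis genes (3 above). Whether these shares go beyond p400 was not tested. Of 69 mitochondrial ribosomal protein genes, 18 (26.1%) were above and 2 below, with a median ratio of 1.45. At the ends of the profile 4 and 3 were above. Mrps36 had 25 Tip60 and 9 untagged reads (3.78, 1.64 to 8.84). Without scaling to the flank 11 were above. Of 63 translation factor genes 9 (14.3%) were above and 2 below, with a median of 1.44, and 2 and 4 were above at the ends of the profile. The leading gene was Eif5a (chromosome 11, TSS at 69734442, minus strand, at the annotated start), which encodes a factor for translation elongation. It had 39 Tip60 and 4 untagged reads, or 4.25 and 0.320 times the flank, a ratio of 13.3 (4.60 to 49.1). Eif3h (26 and 6 reads) and Eef2 (28 and 12), for an initiation and an elongation factor, were also above, and Eif4b (6 and 25) was below. Of 20 aminoacyl-tRNA synthetase genes 2 (10.0%) were above, Nars (30 and 17 reads) and Kars (23 and 14), no more than the 2 above at the downstream end of the profile. Yars2, the mitochondrial tyrosyl-tRNA synthetase (chromosome 16, TSS at 16303075), had 33 and 3 reads, a ratio of 12.5 (4.51 to 73.3). Of 29 ribosome biogenesis genes 4 (13.8%) were above, against 0 and 1 at the ends of the profile, led by Nop56 (39 and 12 reads, 4.44), a core protein of box C/D snoRNPs.

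Genes of energy metabolism, RNA processing and protein turnover ranged down to the level of all genes. In the top 10% of p400 lay 20 respiratory chain and ATP synthase genes (5 above), 12 splicing factor genes (2) and 10 proteasome genes (0). Of 79 respiratory chain and ATP synthase genes 12 (15.2%) were above and 3 below, with 3 and 2 above at the upstream and downstream ends of the profile. Atp5g2, a subunit of the ATP synthase ring, had 46 and 18 reads (3.45, 1.90 to 6.12). Of 39 splicing factor genes 5 (12.8%) were above and 0 below, led by Sf3b3 (25 and 6 reads, 5.36), of the U2 snRNP. At the ends of the profile 2 and 1 were above. Cstf1, for a cleavage stimulation factor (52 and 9 reads, 7.40, 3.69 to 17.4), and Nup35, for a nucleoporin (20 and 2 reads, 11.5, lower bound 3.18), were among the 12 genes with the highest lower bounds. Proteasome genes were above in 3 of 35 (8.57%), close to the 7.45% of all genes, and in 3 and 1 at the ends of the profile.

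Cell cycle genes and p53 targets had larger shares above background than the 7.45% of all genes. None was below, against 3.46% of all genes, which lists this small can show at that share. In the top 10% of p400 lay 21 of the cell cycle genes (5 above) and 9 of the p53 targets (4 above). Of 46 cell cycle and replication licensing genes 9 (19.6%) were above, with a median ratio of 1.26, and 0 and 1 at the ends of the profile. Aurka, a mitotic kinase, had 50 and 18 reads (3.58, 2.08 to 6.62). Its start lies within 1000 bp of that of Cstf1, so both rows share reads. Cdk1 (37 and 13 reads), Mcm6 (18 and 4), of the replicative helicase, and Pcna (20 and 7), the sliding clamp, were above as well. Of 21 p53 target genes 7 (33.3%, binomial interval 14.6 to 57.0) were above, with a median of 1.19, and 0 and 2 at the ends of the profile. Polk, a translesion polymerase, had 36 and 12 reads (3.98, 1.99 to 8.28), and the apoptosis genes Bbc3 (21 and 7), Pmaip1 (19 and 9) and Bax (38 and 24) were above. Cdkn1a, the p53 target that encodes the inhibitor p21, was not above, with 12 and 17 reads (0.877, 0.402 to 2.05, and 1.28 with the window from -1000 to 1000 bp). Upon GFP KD it held 36 Tip60 reads.

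**Figure D4:**
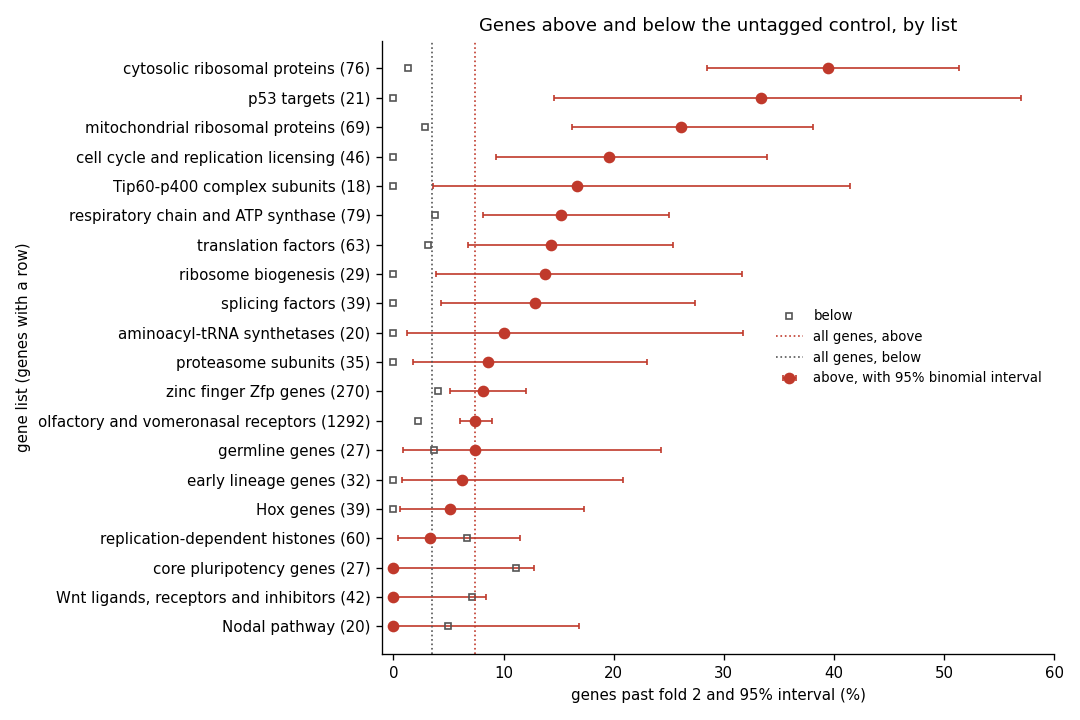
Percent of genes above (red points, 95% binomial intervals) and below (open squares) the untagged control (x axis) in each gene list (y axis, genes with a row in brackets). Dotted lines mark all 17689 genes, 7.45% above and 3.46% below. Ribosomal protein genes stand highest at 39.5%, and 3 lists of pluripotency, Wnt and Nodal genes have 0 above.

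Developmental genes showed no such excess. Over 160 genes of pluripotency, the Nodal pathway, early lineages, Wnt signalling and the Hox clusters, 4 (2.50%) were above and 7 (4.38%) below, with a median ratio of 0.905. Of all genes 7.45% were above and 3.46% below. At the upstream and downstream ends of the profile 2 and 11 of the 160 genes were above. Their GC content (59.5%) was near that of ribosomal protein genes (57.5%), and GC-binned scaling gave 6 above, 6 below and a median of 0.970. Their p400 upon GFP KD was lower, at 1.62 times the flank against 3.42 for ribosomal protein genes. In the top 10% of p400 lay 4 of the 160 genes, against 58 of 76. Whether the 2 groups of genes differ beyond p400 was not tested. Of 27 core pluripotency genes 0 were above and 3 below, with a median of 0.833 and an untagged signal of 1.29 times the flank against 1.08 over all genes. The 3 genes were Pou5f1, which encodes Oct4 (8 Tip60 and 27 untagged reads), Klf2 (7 and 26) and Zfp42 (4 and 18). With 0 of 27 above, the binomial interval reaches 12.8% and includes the share of all genes. Nodal, the ligand that maintains the epiblast and induces mesendoderm (chromosome 10, TSS at 60881048), was below with 4 and 26 reads (0.185, 0.0510 to 0.580). In the untagged library alone it stood at 2.22 times the flank, as high as Tip60 upon GFP KD (2.14). Of 20 genes of its pathway 0 were above, and of 42 Wnt ligands, receptors and inhibitors 0 were above and 3 below. The binomial intervals of these shares above reach 16.8% and 8.41% and include the share of all genes. Genes above included the lineage regulator Foxq1 (16 and 6 reads), and Hoxb4 (23 and 9) and Hoxb2 (17 and 6) of 39 Hox genes. The Hoxb4 row lies 2055 bp from the nearest annotated start of that gene.

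The other genes examined by ChIP in the study were not told apart from background, and Gata6 was not analysed here. Gata4 (7 and 11 reads), Nefl (11 and 13), Dkk1 (8 and 9), Zfp37 (20 and 26) and Speer2 (3 and 5) had intervals that include 1, with ratios from 0.730 to 1.22. The intervals reach 1.87-fold for Zfp37 and 4.03-fold for Speer2, so an excess of that size is compatible with these counts. The 4 genes other than Zfp37 held no more than 13 untagged and 11 Tip60 reads each.

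**Figure D5:**
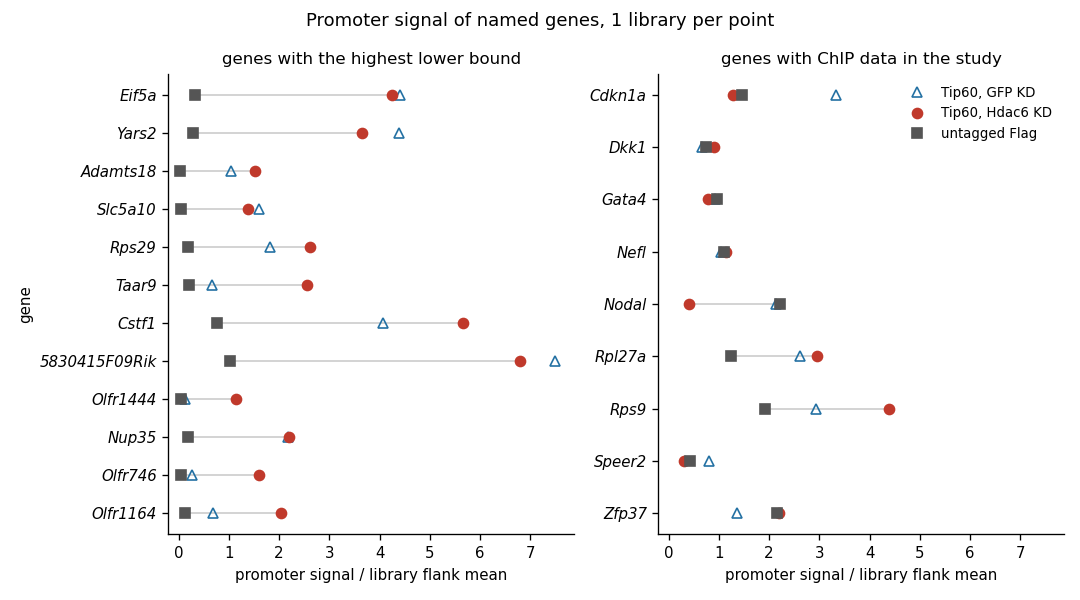
Promoter signal over the flank mean (x axis) of named genes (y axis) in 3 single libraries, Tip60 upon Hdac6 KD (red), untagged Flag (grey) and Tip60 upon GFP KD (blue triangles). Left, the 12 genes with the highest lower bound, where Eif5a reads 4.25 against 0.320. Right, genes with ChIP data in the study, where Rpl27a and Rps9 stand above the untagged signal and Nodal below it.

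Genes of the complex itself were mostly not told apart from background. Of 18 genes for Tip60-p400 subunits 3 (16.7%) were above, against 7.45% of all genes, and 0 below, with a median of 1.21. As many, 3, were above at the downstream end of the profile and 0 at the upstream end. They were Actl6a, an actin-related subunit (25 and 12 reads, 2.61, 1.32 to 5.95), Trrap, the scaffold (24 and 12, 2.60, 1.26 to 5.74), and Morf4l1, a chromodomain protein (20 and 11, 2.38, 1.09 to 5.49). Kat5, the Tip60 gene, had 10 and 14 reads (0.998), and Ep400, the p400 gene, 11 and 18 (0.822). The Ep400 row lies 4325 bp from the nearest annotated start of that gene, so it may not be its promoter. Neither direction was stable, since the narrow window gave 1.99 for Kat5 and 1.31 for Ep400.

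Multigene families, some of them at low GC content, gave another picture. Of 1292 olfactory and vomeronasal receptor genes, which are silent in ESCs and lie in AT-rich clusters (39.5% GC), 96 (7.43%) were above, close to the 7.45% of all genes, and 29 (2.24%) below. Scaling within GC bins gave 76 above and 40 below. The ratio was even along the profile, between 1.12 and 1.21 in each window from -1500 to 1500 bp. Olfr1444 had 11 Tip60 and 0 untagged reads, 4.58-fold higher against a floor of 3 reads and at least 3.28-fold higher by the lower bound of its interval, but 1 read for Tip60 upon GFP KD. Olfr746 had 15 and 1 reads (28.6, 3.02 to 826), and the trace amine receptor gene Taar9 23 and 2 (12.3, lower bound 3.72), while upon GFP KD they held 3 and 7 Tip60 reads. Adamts18, for a secreted metalloprotease (14 and 0 reads), and Slc5a10, for a sodium-coupled sugar transporter (13 and 0), were 6.04-fold and 5.48-fold higher against that floor and at least 4.34-fold and 3.99-fold higher by their lower bounds. By contrast, Eif5a held 47 reads, Yars2 47 and 5830415F09Rik (62 and 12 reads, 6.68, 3.61 to 13.8) 81 for Tip60 upon GFP KD. Among 270 Zfp zinc finger genes 22 (8.15%) were above and 11 (4.07%) below, near the shares of all genes. Among 60 replication-dependent histone genes 2 (3.33%) were above and 4 (6.67%) below, with a median of 0.875. At the upstream and downstream ends of the profile 7 and 5 of the histone genes were above. Among 27 germline genes 2 (7.41%) were above and 1 (3.70%) below, near the shares of all genes. Receptor, histone and Zfp genes have near-identical copies between which reads were placed at random, so single members are uncertain.

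At the other end stood rows with reads almost only in the untagged library. Ccl20, a chemokine gene, had 0 Tip60 and 19 untagged reads, Vps4a, for an ATPase of membrane scission, 0 and 17, and Ripply1, a regulator of somite formation, 1 and 26. Of these, Vps4a held 9 and Ccl20 11 Tip60 reads upon GFP KD.

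Beside these values stand those of Tip60 upon GFP KD, which share the untagged control. The summed scaled ratio of cytosolic ribosomal protein genes was 1.77 (1.64 to 1.90) upon Hdac6 KD and 2.22 upon GFP KD. For mitochondrial ribosomal protein genes it was 1.34 (1.24 to 1.46, which includes the GFP KD value) and 1.43. It was 1.27 and 2.64 for aminoacyl-tRNA synthetase genes, 1.40 and 1.92 for p53 targets, and 0.948 and 1.06 for the developmental genes. Other lists had a higher value upon Hdac6 KD. The ratio was 1.39 (1.17 to 1.64) and 1.38 for genes of Tip60-p400 subunits and 1.15 (1.02 to 1.30) and 1.10 for proteasome genes. For Hox genes it was 1.05 (0.918 to 1.22) and 0.968, and for olfactory and vomeronasal receptor genes 1.16 (1.13 to 1.19) and 1.06. Except for the receptor genes, these intervals include the GFP KD value. Receptor genes are low in GC, and the lowest of the 5 groups of rows by GC gave a ratio of 1.12 and 1.02. Over all genes it was 1.10 and 1.20. In the top 10% of p400 it was 1.30 and 1.65. The p400 signal of the same top 10% was 3.41 times the flank upon GFP KD and 1.52 upon Hdac6 KD. In the last 40% it was 0.816 and 0.915. The p400 signal upon GFP KD is the value that ranked the rows, so these values do not measure a change of p400.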

How the data were processed

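The authors collapsed 50 bp reads by sequence with occurrences kept, mapped them to mm9 with bowtie (at most 1 mismatch, random placement of multiple matches), extended them, removed simple repeats, and deposited the coverage signal in ppm every 20 bp from -2000 to 2000 bp of each TSS. The submitters' processing notes also name CASAVA 1.8.2. The bowtie version, normalization and TSS list are not given in the sources used here.

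Deposited signal values are whole multiples of a step, the value of 1 read. For each row, the signal was summed and converted to reads through this step and the length an isolated read covers (299 bp, for Hdac6 148 bp), then rounded. These lengths were read from the values. The study's methods state a single extension length for all files, which is near that of Hdac6 only, and read counts and intervals depend on the length used. Python 3.11.15, numpy 2.4.6, scipy 1.17.1, pandas 2.3.3 and matplotlib 3.10.9 were used. Scaled ratios use the mean signal, and Clopper-Pearson intervals (95%) use the reads. Binomial intervals of shares take rows or genes as independent, although neighbouring rows share reads. Sums over rows count such reads more than once. Neither kind of interval covers variation between cultures. A fold against 0 reads takes a floor of 3 reads. No test was made, since each condition has 1 sample. p400 rows were joined by RefSeq identifier and file order. Promoters and GC content were read from the mm9 reference.

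Genes were named by fixed rules: the 12 RefSeq rows with the highest lower bounds (without the 1% of rows highest in untagged signal), genes the study gives ChIP data for, genes of the factors and complex subunits, the highest lower bound of each list, the 3 lowest upper bounds, and rows next to the threshold. Other genes named were chosen after their values were seen. Members, rules and lists were chosen with earlier results of these data known. Windows, scaling, fold, interval and read minimum were varied. A few single genes of the lists are not reported here.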

Additional observations from a re-analysis of the deposited data

How the results depend on the processing

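The alternatives changed 1 choice at a time. The mean promoter ratio of 1.07 turned to 0.993 without flank scaling. It was 1.13 with GC-binned scaling, 1.09 without the 1% of rows highest in untagged signal, 1.08 and 1.05 with windows of -250 to 250 and -1000 to 1000 bp, and 1.10 with 1 row per gene. Rows above (2301) and below (1329) numbered 1472 and 719 with the narrow window, 4725 and 5604 without an interval, 960 and 456 with a 99% interval, and 1317 and 612 with 1 row per gene. A fold of 3 gave 1084 above, and a minimum of 20 reads 807 below. Without scaling 1690 were above and 1807 below, so the split between higher and lower rows turned.

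The share above in the top 10% and last 40% of p400 (15.7% and 5.29%) was 11.9% and 3.88% without scaling, 11.2% and 3.03% with the narrow window, 4.45% and 3.42% at a fold of 3, 19.3% and 14.5% without an interval, and 9.25% and 1.77% with a 99% interval. In the top 10% it was 20.2% with GC-binned scaling and 7.84% with the wide window, and in the last 40% 7.59% with at least 20 reads and 5.93% with 1 row per gene. The top 10% exceeded the last 40% in each of these.

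For the 30 ribosomal protein genes above, added after seeing the data, the narrow and the wide window gave 18 each, a fold of 3 gave 9 and a 99% interval 19. Also added was the removal of rows whose Tip60 reads mostly lay in a single 20 bp step, which by construction drops rows with few Tip60 reads. It gave a mean ratio of 1.13, 772 rows below and 6.33% in the last 40%. The cause of other changes was not tested. Of 260 values of named genes, 20 moved out of the gene's own interval, among them some of the highest ratios. With the wide window Eif5a fell from 13.3 to 2.85, Rps29 from 13.3 to 3.70 and Taar9 from 12.3 to 2.10. With the narrow window Olfr746 fell from 28.6 to 2.07, while Atp5g2 and Rpl27a rose to 6.76 and 5.01. No gene called above or below crossed a ratio of 1. Genes called neither did cross it, among them Ep400 (0.822, and 1.31 and 1.52 with the narrow and wide window), Kat5 (0.998, and 1.99 with the narrow window), Cdkn1a (0.877, and 1.04 and 1.28), Gata4 (0.831, and 1.19 with the wide window) and Dkk1 (1.22, and 0.836 with the wide window). No paired analysis was possible because each condition has 1 sample. Depth limits single rows: of 4725 rows with a fold of at least 2, only 2301 also passed the interval.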

Other observations

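Promoter motifs, searched in the same 250 bp upstream of the TSS and on both strands, differed in frequency among rows of the top 10% of p400. AAGATGGC (YY1) was found in 7.28% of the 357 rows above background and in 3.40% of the other 1913, against 1.68% of all RefSeq promoters. GGGCGG (SP) went the other way, with 57.4% and 66.3%, and CCGGAAG (ETS) was found in 23.0% of each. In the last 40% of p400, AAGATGGC was found in 0.833% of 480 rows above and 1.13% of the other 8602. Promoters that share a TSS region share their letters, and no test was made.

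Over all RefSeq rows, those above background had a median ratio of observed to expected CpG of 0.659, those below 0.444 and the remaining rows 0.541. Their mean p400 signal was 2.03, 1.61 and 1.61 times the flank upon GFP KD and 1.20, 1.22 and 1.15 upon Hdac6 KD.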
